A study of Mus musculus with 8 samples.

Results

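The thrombospondins and cartilage oligomeric matrix protein (Comp) were examined as a family in activated muscle stem cells (ASCs), muscle stem cells that have been woken from quiescence by an injury. The members were taken by gene symbol, and all 5 of them (Thbs1, Thbs2, Thbs3, Thbs4 and Comp) were among the 18877 symbols of the deposited table of normalized read counts. Total RNA had been sequenced from 4 libraries of wild-type and 4 of mfn2-/- ASCs. Every mouse carried a mitochondrial Dendra2 allele switched on by Pax7-Cre(ERT2) and received 75 mg/kg tamoxifen daily for 5 days, then 50 uL of 1.2% BaCl2 in the tibialis anterior, from which living CD34-, Dendra2+ cells were sorted 2 days after the injury. In the mfn2-/- mice the same Cre deleted a conditional allele of Mfn2, which encodes a fusion protein of the mitochondrial outer membrane, so the deletion was limited to cells with Pax7-Cre activity and their progeny. Ages are not given in the labels. Nothing in the labels says which libraries came from which animals, so the p-values measure the spread between these libraries.

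Thrombospondins are secreted, calcium-binding glycoproteins that sit in the extracellular matrix and link collagens, proteoglycans and growth factors to receptors on the cell surface. Thbs1 and Thbs2 assemble as trimers and carry the domains that inhibit the growth of blood vessels, while Thbs3, Thbs4 and Comp assemble as pentamers. Thbs4 is known from muscle and from its attachments to tendon, and Comp from cartilage and tendon, where it organises collagen fibrils.

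The stretches of DNA around the transcription starts are shown because all the members fell in mfn2-/- ASCs and a reader may want to compare their start regions. RefSeq sequences (GRCm38.p6) from 250 bases before to 50 bases after the start were held for Thbs2, Thbs3 and Thbs4, and not for Thbs1 and Comp. Capitals mark matches on either strand to the NFAT core GGAAA, to the boxes named CCAAT and TATAAA, and to the HIF core as ACGTG or as GCGTG. No marked matches overlapped each other.
Thbs2, chr17:14694213-14694512, minus strand: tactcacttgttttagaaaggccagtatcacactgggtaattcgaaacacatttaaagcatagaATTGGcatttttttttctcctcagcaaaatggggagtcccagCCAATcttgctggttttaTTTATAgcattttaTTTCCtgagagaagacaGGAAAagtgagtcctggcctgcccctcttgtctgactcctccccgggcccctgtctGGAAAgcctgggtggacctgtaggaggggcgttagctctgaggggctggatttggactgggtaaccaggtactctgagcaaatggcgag
Thbs3, chr3:89214930-89215229, plus strand: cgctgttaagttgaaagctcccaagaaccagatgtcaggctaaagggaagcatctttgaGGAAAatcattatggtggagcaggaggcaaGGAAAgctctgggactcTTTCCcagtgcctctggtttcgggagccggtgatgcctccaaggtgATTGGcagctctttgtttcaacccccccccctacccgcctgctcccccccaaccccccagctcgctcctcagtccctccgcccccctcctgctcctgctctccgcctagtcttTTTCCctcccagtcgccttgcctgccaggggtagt
Thbs4, chr13:92794769-92795068, minus strand: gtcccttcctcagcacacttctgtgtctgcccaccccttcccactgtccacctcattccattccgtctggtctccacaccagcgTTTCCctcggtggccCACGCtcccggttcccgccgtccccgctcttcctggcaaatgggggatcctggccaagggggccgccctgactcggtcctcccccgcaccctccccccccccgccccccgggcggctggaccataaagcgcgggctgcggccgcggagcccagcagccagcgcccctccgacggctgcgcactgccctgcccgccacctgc
GGAAA occurred 3 times in the window of Thbs2, 4 times in that of Thbs3 and once in that of Thbs4, and 61.3% of 32851 promoter windows of the same length held it at least once. The Thbs2 window held 2 copies of CCAAT and the Thbs3 window 1, against 37.4% of all windows with a copy. TATAAA was found only in the Thbs2 window among these and in 13.6% of all windows, and GCGTG only in the Thbs4 window and in 32.4% of all windows. ACGTG (19.6% of windows), TGANTCA (AP-1, 7.81%) and GCGNGGGCG (EGR, 5.55%) had 0 matches in the windows of these members. The E-box CANNTG, not in capitals, matched 2, 1 and 2 times in Thbs2, Thbs3 and Thbs4 and was present in 72.3% of all windows. The windows also differed in base composition, with a GC content of 48.3% for Thbs2, 59.0% for Thbs3 and 72.0% for Thbs4.

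Reads per library ranged from 1880464 (wild-type replicate 1) to 7508215 (wild-type replicate 4), and mfn2-/- replicate 4 was the library with fewest genes detected (9646, against 12613 to 15270 in the others). Y-linked genes gave 807 to 2336 reads in wild-type replicates 3 and 4 and in mfn2-/- replicates 1 and 2, but 0 reads in the remaining 4 libraries. Within a group this is also the split into replicates 1 and 2 against 3 and 4, so Y-linked reads and replicate pair cannot be told apart. The level of Mfn2 was 229 ± 19.98 (SD, n = 4) normalized reads for wild-type against 126 ± 31.4 for mfn2-/- ASCs, without overlap, with a limma adjusted p of 0.0848. Of the muscle stem cell markers, Pax7 was present in every library, at 662 ± 45.9 (wild-type) and 715 ± 96.1 (mfn2-/-) normalized reads.

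All 5 members were lower in mfn2-/- ASCs, and the ratio of the group means, wild-type over mfn2-/-, ran from 2.29 for Thbs1 to 505 for Comp. By limma on log2(normalized reads + 1) with Benjamini-Hochberg adjustment over all 11754 genes tested, 5 of 5 members passed an adjusted p of 0.05 in this direction, where 6.36% of all genes tested were called lower and 10.4% were called in either direction. For 5 of 5 members every mfn2-/- library also lay below every wild-type library, which held for 12.2% of all genes tested (groups apart in either direction: 19.5%). The count models edgeR and DESeq2, run on the recovered reads, called 5 of 5 lower as well, where they called 5.59% and 9.27% of all genes lower and 9.85% and 14.8% in either direction. The median log2 change over all genes tested was -0.16. The family was chosen with earlier results of these data known, so these counts are no independent test. In these bulk samples, fewer cells of a type and less RNA per cell cannot be told apart.

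**Figure D1:**
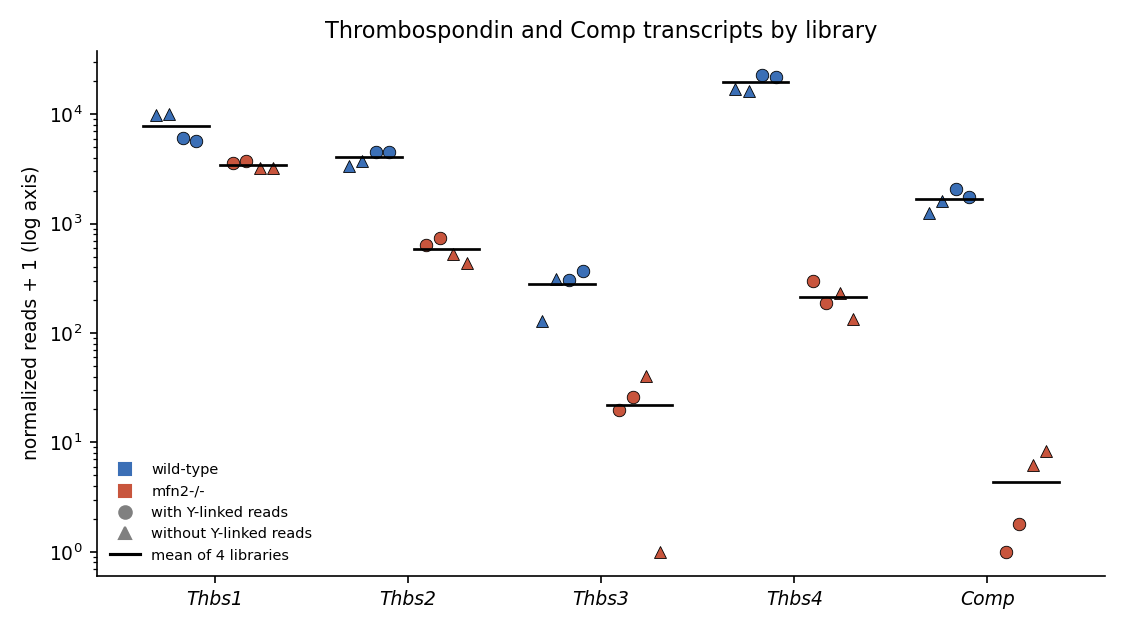
Normalized reads + 1 (log axis) of each member in each library, with wild-type in blue and mfn2-/- in red. Circles are libraries with Y-linked reads, triangles libraries without them, and bars the means of 4 libraries; the groups do not overlap for any member, and Comp and Thbs3 reach 0 reads in an mfn2-/- library.

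Among the trimeric members, Thbs1, which releases TGF-beta from its latent form and restrains endothelial cells through Cd36, was the least affected. Its normalized reads were 9802, 10003, 6022 and 5692 in wild-type replicates 1 to 4 and 3606, 3729, 3211 and 3233 in mfn2-/- replicates 1 to 4. The mfn2-/- libraries lay close together while the wild-type libraries fell into a high and a low pair. The mean fell 2.29-fold, from 7880 ± 2341 to 3445 ± 262 (SD, n = 4 each), with a log2 change of -1.15 (SE 0.22, 95% interval -1.62 to -0.67, limma adjusted p 0.00531). The call was lost without the intensity trend of limma (adjusted p 0.0686). Of the genes tested, 2811 had a lower log2 change than Thbs1.

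Thbs2, which shapes collagen fibrils and carries Mmp2 to its clearance receptor, had 3377, 3715, 4514 and 4546 normalized reads in the wild-type libraries and 636, 737, 526 and 438 in the mfn2-/- libraries. The lowest wild-type library was thus above the highest mfn2-/- library by several fold, and both groups were tight. The means were 4038 ± 585 and 584 ± 130, a 6.91-fold fall with a log2 change of -2.80 (SE 0.20, 95% interval -3.24 to -2.37, limma adjusted p 1.36e-06). The call held under every alternative tried.

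Among the pentameric members, Thbs4 was the most abundant in wild-type ASCs and lost most of its transcript. It measured 16891, 16236, 23032 and 22009 normalized reads in the wild-type libraries. In the mfn2-/- libraries it measured 299, 186, 230 and 132. The mean fell 92.3-fold, from 19542 ± 3475 to 212 ± 70.5, and the log2 change was -6.57 (SE 0.24, 95% interval -7.09 to -6.04, limma adjusted p 1.17e-09), with 44 genes of the table lower. Transcript was still read in each mfn2-/- library, with 1068 reads over the 4 libraries against 92484 in the wild-type libraries.

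Comp showed the largest fall of the family and was close to the limit of detection in mfn2-/- ASCs. The wild-type libraries had 1255, 1598, 2083 and 1765 normalized reads. The mfn2-/- libraries had 0, 0.790, 5.16 and 7.33, which came from 0, 1, 7 and 4 reads. Over the pooled reads of each group (7948 against 12) the wild-type level was 687-fold higher, with an exact Poisson interval of 393 to 1330 that covers counting error only. The fitted log2 change was -9.06 (SE 0.68, 95% interval -10.53 to -7.59, limma adjusted p 2.10e-06) and moved with the pseudocount, from -10.24 at 0.1 to -7.00 at 10. Only 3 of the genes tested had a lower fitted change.

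Thbs3, which takes part in the timing of skeletal growth, was the weakest member in wild-type ASCs and the least certain. It measured 127, 311, 303 and 370 normalized reads in the wild-type libraries and 18.7, 25.3, 39.8 and 0 in the mfn2-/- libraries. The library at 0 was mfn2-/- replicate 4, where 1 read was worth 1.83 normalized reads and the fewest genes were detected (9646). The shallower wild-type replicate 1, at 2.27 normalized reads per read, had 12613 genes detected and 56 Thbs3 reads. Why mfn2-/- replicate 4 was at 0 was not tested. The means were 278 ± 105 and 20.9 ± 16.5, and the log2 change was -4.43 (SE 1.01, 95% interval -6.60 to -2.25, limma adjusted p 0.0138). Without mfn2-/- replicate 4 the change was -3.23 (adjusted p 0.00064), and the pooled reads (1420 against 114) gave a 12.9-fold difference (Poisson interval 10.8 to 15.7). The call was lost at a pseudocount of 0.1 (adjusted p 0.0671), without the intensity trend (0.0675), without wild-type replicate 3 (0.0521) and without wild-type replicate 4 (0.0538).

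Each member by itself gave p = 0.0286 in a two-sided exact permutation test over the 70 arrangements of 4 against 4 libraries, the smallest value that this design allows. That value follows from groups that do not overlap, which held for 19.5% of all genes tested, so it adds no further evidence. Ordered by the fitted change, the 95% intervals of Thbs1, Thbs2, Thbs4 and Comp did not overlap each other, whereas the wide interval of Thbs3 overlapped those of Thbs2 and Thbs4. Within libraries, the log2 ratio of Thbs2 to Thbs1 was -0.93 ± 0.65 in wild-type and -2.58 ± 0.23 in mfn2-/- ASCs, and that of Comp to Thbs4 was -3.55 ± 0.18 and -6.04 ± 1.83, both without overlap of the groups. The ratios of Thbs3 to Thbs2 and of Thbs4 to Thbs3 overlapped between the groups. The pentameric members therefore ranked below the trimeric ones in fitted change, but Thbs3 could not be separated from Thbs2. The 5 members shared 0 words of 31 bases between their exons, so reads of that length would not be split between them.

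**Figure D2:**
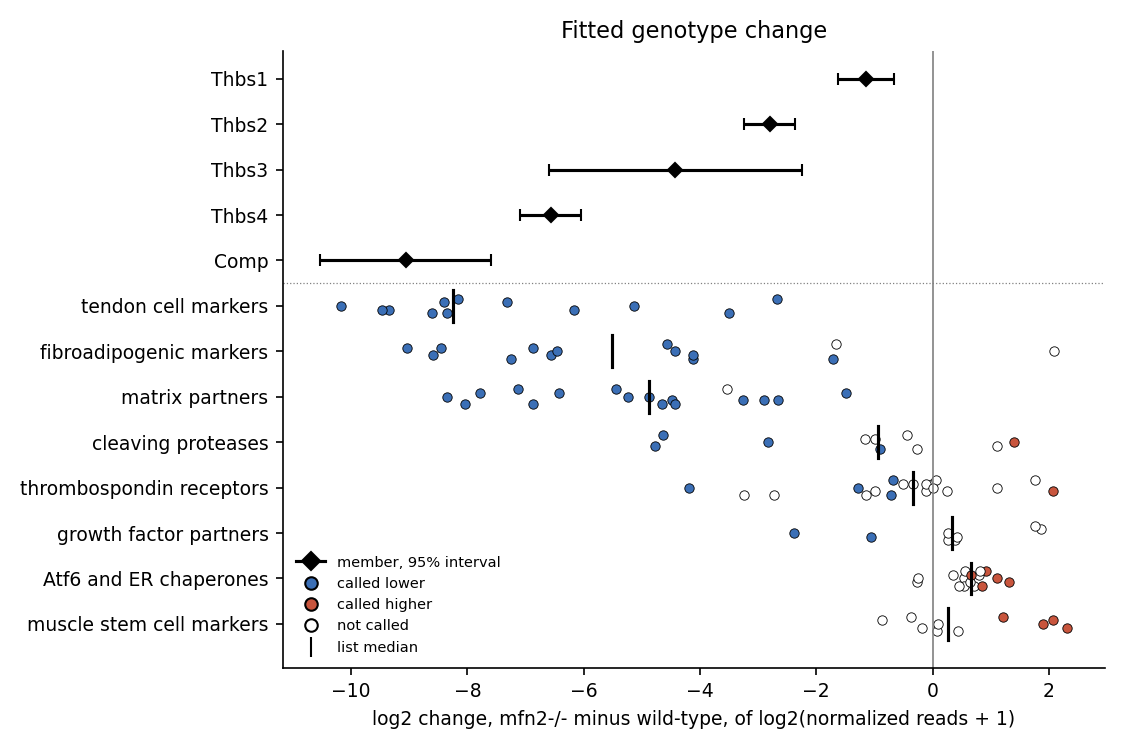
Log2 change of log2(normalized reads + 1), mfn2-/- minus wild-type, for the members (diamonds with 95% intervals) and for the genes of the partner and marker lists (points; blue called lower, red called higher, white not called). Vertical ticks are list medians, which run from -8.25 for tendon cell markers to 0.66 for Atf6 and ER chaperones, while the members run from -1.15 for Thbs1 to -9.06 for Comp.

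Divided by the exon length of GENCODE M21 (GRCm38), the levels of the members could be set against each other. In wild-type ASCs Thbs4 had 5942 ± 1057 normalized reads per kilobase, which ranked it 12th of 16336 genes with a length. Thbs1 followed at 1298 ± 386, then Thbs2 at 577 ± 83.5 and Comp at 565 ± 116, whose ranges overlapped, and Thbs3 at 57.6 ± 21.7. In mfn2-/- ASCs the order was different. Thbs1 was highest at 567 ± 43.2 per kilobase, Thbs2 (83.4 ± 18.6) and Thbs4 (64.4 ± 21.4) overlapped, and Thbs3 (4.34 ± 3.42) and Comp (1.12 ± 1.18) overlapped at the bottom. Thbs4 thereby dropped from rank 12 to rank 2070, Comp from 149 to 11393, and Thbs1 from 58 to 149.

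The make-up of the family changed with these losses. Thbs4 supplied 66.9%, 64.0%, 74.5% and 74.8% of the family's summed level per kilobase in the wild-type libraries and 11.7%, 7.25%, 10.2% and 6.29% in the mfn2-/- libraries. The share of Thbs1 was 15.8% ± 6.16 and 78.9% ± 3.22, so the family transcript that remained was mostly Thbs1. The share of Comp went from 6.65% ± 0.83 to 0.17% ± 0.18, while that of Thbs2 went from 6.81% ± 0.40 to 11.5% ± 1.53 although its own level fell. Without division by length the share of Thbs4 was 58.2% and 4.93%. The 5 transcripts together took 0.808% ± 0.075 of all normalized reads of wild-type ASCs and 0.106% ± 0.010 of those of mfn2-/- ASCs.

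**Figure D3:**
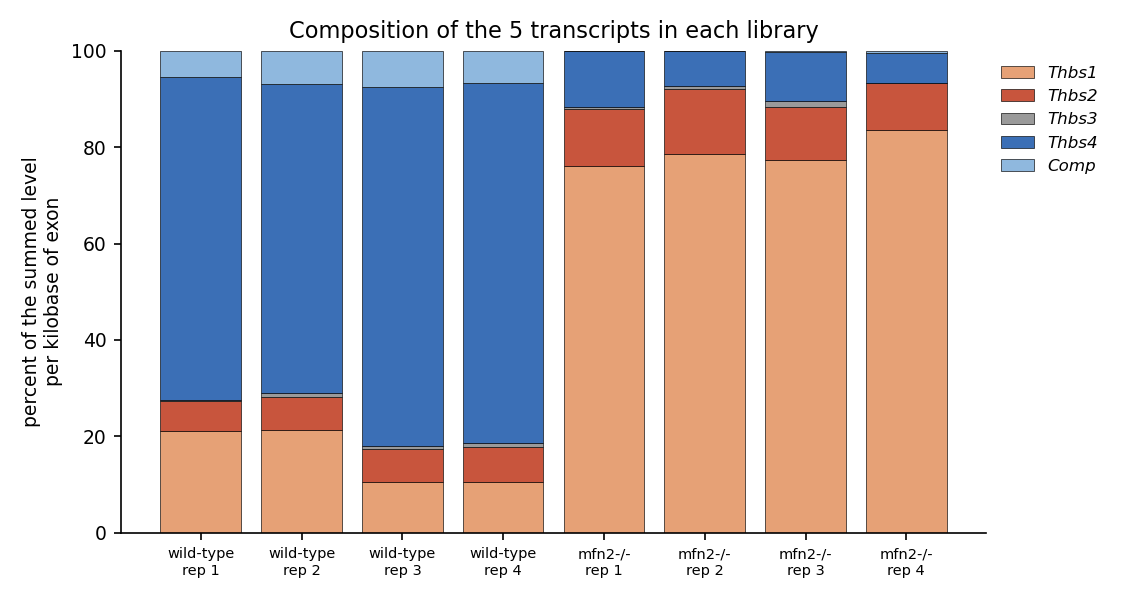
Share of each member in the summed level per kilobase of exon, in percent, for each of the 8 libraries. Thbs4 holds 64.0% to 74.8% of the bars of wild-type libraries, and Thbs1 holds 76.2% to 83.5% of those of mfn2-/- libraries.

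The Thbs1 fall was larger in one kind of library, though the test of this held in part of the settings only. Among libraries with Y-linked reads the means were 5857 (wild-type) and 3667 (mfn2-/-) normalized reads, a 1.60-fold difference. Among those without, it was 9903 and 3222, a 3.07-fold difference. The log2 changes were -0.67 and -1.62, and their difference of -0.94 (95% interval -1.28 to -0.61) had a limma adjusted p of 0.0148, where 1.47% of all genes tested passed this test. It rested on 2 libraries per genotype and kind. In each genotype the libraries without Y-linked reads were also the shallower ones. Their reads were 1880464 and 4080836 against 4963593 and 7508215 in wild-type, and 5050798 and 2269009 against 6199866 and 5115404 in mfn2-/- ASCs. Kind and depth therefore cannot be told apart here. The adjusted p was 0.0513 with equal totals, 0.0513 with quantile normalization and 0.513 without the intensity trend, and leaving out 1 library gave 0.00957 to 0.118, with the call lost without any of wild-type replicates 1 to 4 and mfn2-/- replicates 1 and 2.

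In wild-type ASCs, Thbs1 was 1.69-fold higher in the libraries without Y-linked reads, whereas the other members were lower there, at 0.783 (Thbs2), 0.651 (Thbs3), 0.735 (Thbs4) and 0.741 (Comp) of the level in the other kind. The summed tendon cell markers moved with the latter, at 28958 and 30875 normalized reads in wild-type replicates 1 and 2 against 49506 and 47264 in replicates 3 and 4. Mural (2561 and 2635 against 3574 and 3714) and endothelial sums (982 and 980 against 1413 and 1303) were also lower in replicates 1 and 2, while muscle stem cell (16388 and 15676 against 11957 and 11910) and fibroadipogenic sums (70565 and 71532 against 60348 and 60364) were higher. The part of these markers in the differences was not tested. The genotype changes of Thbs2 (-2.72 with and -2.88 without Y-linked reads), Thbs3 (-3.89 and -4.97) and Thbs4 (-6.57 and -6.56) did not pass the test of a difference between kinds, with limma adjusted p of 0.797, 0.846 and 0.995. The interval of that difference was -0.67 to 0.35 for Thbs2 and -0.83 to 0.85 for Thbs4, and it was wide for Thbs3 (-5.61 to 3.44). For Comp the changes were -10.49 and -7.63 (adjusted p of the difference 0.266), which came from 1 read in the mfn2-/- libraries with Y-linked reads and 11 in those without.

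**Figure D4:**
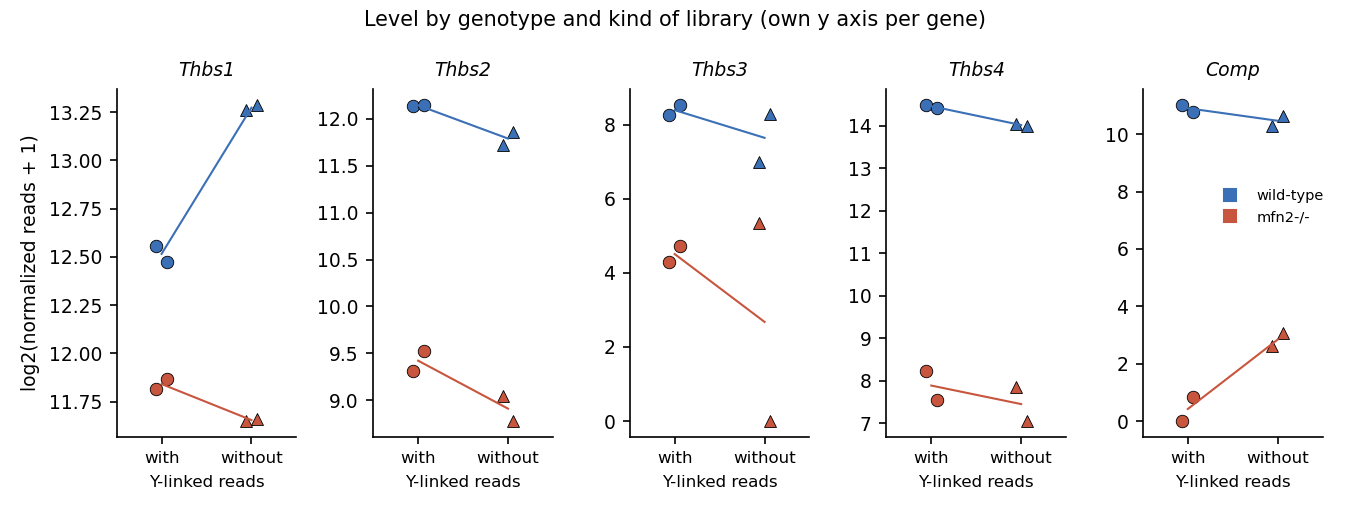
Log2(normalized reads + 1) of each member in libraries with and without Y-linked reads, wild-type in blue and mfn2-/- in red, on a separate vertical axis per gene. Points are libraries and lines join the means of 2 libraries; the lines for Thbs1 spread apart from a log2 change of -0.67 to -1.62, and those for Thbs4 run in parallel at -6.57 and -6.56.

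The genes that work with thrombospondins were taken in 5 lists of 74 genes, 70 of which were tested. Of these, 26 were lower and 7 were higher, against 6.36% and 3.99% of all genes tested, with a median log2 change of -0.39. The count of 33 was 24 to 32 with single libraries left out and 19 without the intensity trend. The lists, too, were chosen with earlier results of these data known, so their counts are no independent test.

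Transcripts of the matrix proteins that thrombospondins bind fell with those of the family. Of 17 tested, 16 were lower, with a median log2 change of -4.87. Col1a1, the main chain of type I collagen, fell from 106037 ± 21896 to 334 ± 124 normalized reads (log2 change -8.36, limma adjusted p 3.64e-10), and its partner chain Col1a2 changed by -7.79 (1.11e-09). The cartilage collagen Col2a1 changed by -7.13 (limma adjusted p 2.16e-07). Acan, the large proteoglycan of cartilage, had 1625 reads over the wild-type libraries and 0 over the mfn2-/- libraries, at least 562-fold lower against a floor of 3 reads over the group. Matn3 (-3.53, limma adjusted p 0.158) was the tested gene that did not pass.

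Receptors were mixed. Of 19 tested, 4 were lower and 1 was higher, with a median of -0.34. Lrp1, the endocytic receptor that clears thrombospondins, fell from 13275 ± 692 to 5533 ± 1004 normalized reads (log2 change -1.28, limma adjusted p 0.00108). The heparan sulfate proteoglycan Sdc4 rose from 4271 ± 1529 to 17473 ± 3953 (2.08, adjusted p 0.000317), and it is also in the muscle stem cell list. The integrin subunit Itga9 (-4.19, adjusted p 0.0197) and the calcium channel subunit Cacna2d1 (-0.72, adjusted p 0.0332) were lower, but the call of Itga9 was lost in 5 and that of Cacna2d1 in 9 of 21 alternatives. Among these, Itga9 lost it without wild-type replicate 2, 3 or 4 (adjusted p 0.0536 to 0.0621) and Cacna2d1 without wild-type replicate 3 or 4 or mfn2-/- replicate 1, 2 or 3 (0.0783 to 0.101). The change of Itga9 was -2.91 without mfn2-/- replicate 4, where it had 0 reads, and -4.86 without mfn2-/- replicate 3. The count of 5 was 2 without wild-type replicate 3 or 4 and 3 without mfn2-/- replicate 1 or 2. Cd36 (log2 change 1.11, limma adjusted p 0.204) and Cd47 (-0.02, adjusted p 0.986), receptors of Thbs1, did not pass.

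Transcripts of proteases that cut thrombospondins or are cleared with them went both ways, with 4 of 10 lower and 1 higher and a median of -0.94. Mmp2 fell from 5121 ± 189 to 728 ± 104 normalized reads (log2 change -2.82, limma adjusted p 1.83e-07). Adamts12, which cleaves Comp, changed by -4.78 (adjusted p 0.0109) and Htra1 by -4.63 (0.0338). Both had 0 reads in mfn2-/- replicate 4, and without that library the changes were -3.38 and -2.84. The Adamts12 log2 change was -5.46 without mfn2-/- replicate 2. The Htra1 log2 change was -5.27 without mfn2-/- replicate 2 and -5.52 without mfn2-/- replicate 1. Adamts4 rose by 1.40 (adjusted p 0.0127) and Adamts1, which cleaves Thbs1 and Thbs2, measured -0.26 (adjusted p 0.594). That value averages opposite changes of Adamts1, 0.48 in libraries with and -1.01 in those without Y-linked reads. The count of 5 was 3 without wild-type replicate 2, 3 or 4, and the call of Htra1 was lost in 8 of 21 alternatives, among them without any of wild-type replicates 1 to 4 or without mfn2-/- replicate 3 (adjusted p 0.0577 to 0.0828).

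Among the growth factors that thrombospondins bind or activate, 2 of 8 were lower and 6 did not pass, with a median of 0.33. Tgfb3 changed by -1.06 (limma adjusted p 0.00614), from 796 ± 79.8 to 386 ± 80.8 normalized reads. Grn, the progranulin that binds Comp, changed by -2.39 (adjusted p 0.00794), and Vegfa by 0.27 (adjusted p 0.605).

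Atf6 and the endoplasmic reticulum chaperones, a pathway that Thbs4 is known to engage inside the cell, had calls in the direction opposite to the family's. Of 16 tested, 5 were higher and 11 did not pass, with a median of 0.66. Herpud1 changed by 1.10 (limma adjusted p 0.00670), Manf by 1.32 (0.0146), Xbp1 by 0.85 (0.0348), Hsp90b1 by 0.66 (0.0356) and Hspa5, the chaperone BiP, by 0.92 (0.0371). Atf6 itself measured 421 and 694 normalized reads (log2 change 0.72, adjusted p 0.109). The count of 5 was 2 without wild-type replicate 3 or 4 or mfn2-/- replicate 1 or 2, 3 without mfn2-/- replicate 3 and 0 without the intensity trend. Without wild-type replicate 3, 4 or mfn2-/- replicate 1 or 2, the calls of Hspa5, Hsp90b1 and Xbp1 were each lost (adjusted p 0.0666 to 0.155), with further losses for Hsp90b1 without wild-type replicate 1 or 2 or mfn2-/- replicate 4, for Xbp1 without wild-type replicate 2, and for Hspa5 and Xbp1 without mfn2-/- replicate 3 (0.0549 to 0.0881), while those of Manf and Herpud1 held with any library left out. edgeR and DESeq2 called 5 each, against 9.85% and 14.8% of all genes tested. The unadjusted limma p was under 0.05 for 11 of the 16. The share of all genes under that unadjusted limit was not worked out, so this count has no background beside it.

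The markers of tendon and fibroadipogenic cells moved with the family. For the counts that follow, limma called 6.36% of all genes tested lower and 3.99% higher. The marker lists were also chosen with earlier results of these data known. Summed over 12 tendon cell markers, the wild-type libraries had 28958 to 49506 normalized reads and the mfn2-/- libraries 275 to 645, and 12 of 12 were lower with a median log2 change of -8.25. Fmod fell from 20617 ± 5494 to 65.4 ± 28.3 normalized reads, Kera changed by -9.34 (limma adjusted p 4.45e-06) and Tnmd by -9.47 (1.84e-05). Kera changed by -9.98 without mfn2-/- replicate 2, and Tnmd by -10.31 without mfn2-/- replicate 1 and by -8.85 without mfn2-/- replicate 3 or 4. Fibroadipogenic markers summed to 60348 to 71532 in wild-type and 4931 to 9079 in mfn2-/- libraries, with 12 of 14 lower and a median of -5.51. Dcn and Col3a1 are in both that list and the matrix list. The muscle stem cell markers summed to 11910 to 16388 and 30351 to 42657, with 4 of 10 higher, 6 not passing and a median of 0.27. The rise of the sum lay mostly in Sdc4 (means of 4271 and 17473 normalized reads) and Des (2156 and 7969), so it was not a rise of the list as a whole. Myod1 changed by 2.32 (limma adjusted p 0.000146), Des by 1.91 (0.00188) and Vcam1 by 1.21 (0.00052). With single libraries left out, 4 markers of the muscle stem cell list were called higher and 0 to 1 lower. The part of these cell types in the changes of the thrombospondins was not tested.

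Markers of other cell types known to make thrombospondins were set beside these. Of all genes tested, limma called 6.36% lower and 3.99% higher, and edgeR and DESeq2 called 9.85% and 14.8% in either direction. Beside these shares, 0 calls in lists this short say little. No such share was worked out for the unadjusted p. Endothelial markers had 0 of 8 called by limma, 0 by edgeR, 0 by DESeq2 and 0 at an unadjusted limma p under 0.05, and a median of 0.48, with summed levels of 980 to 1413 in wild-type and 1125 to 1698 in mfn2-/- libraries. Mural and smooth muscle markers had 3 of 7 lower and 1 higher, with a median of -1.27 and summed levels of 2561 to 3714 and 1351 to 1950. This count of 4 was 2 without wild-type replicate 1, 2 or 3 or mfn2-/- replicate 2 and 3 without any of the others, and the call of the higher gene held only without wild-type replicate 4 or mfn2-/- replicate 3. Of the macrophage markers, Emr1 was at 0 in every wild-type library. C1qb was at 0 in every mfn2-/- library, against 11 reads over the wild-type libraries. Macrophage markers summed to 40.4 to 132 and 84.3 to 132 normalized reads, and platelet markers to 10.6 to 86.1 and 11.1 to 40.3. Of these, 0 of 4 and 0 of 1 tested were called by limma, edgeR or DESeq2 or had an unadjusted limma p under 0.05.

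**Figure D5:**
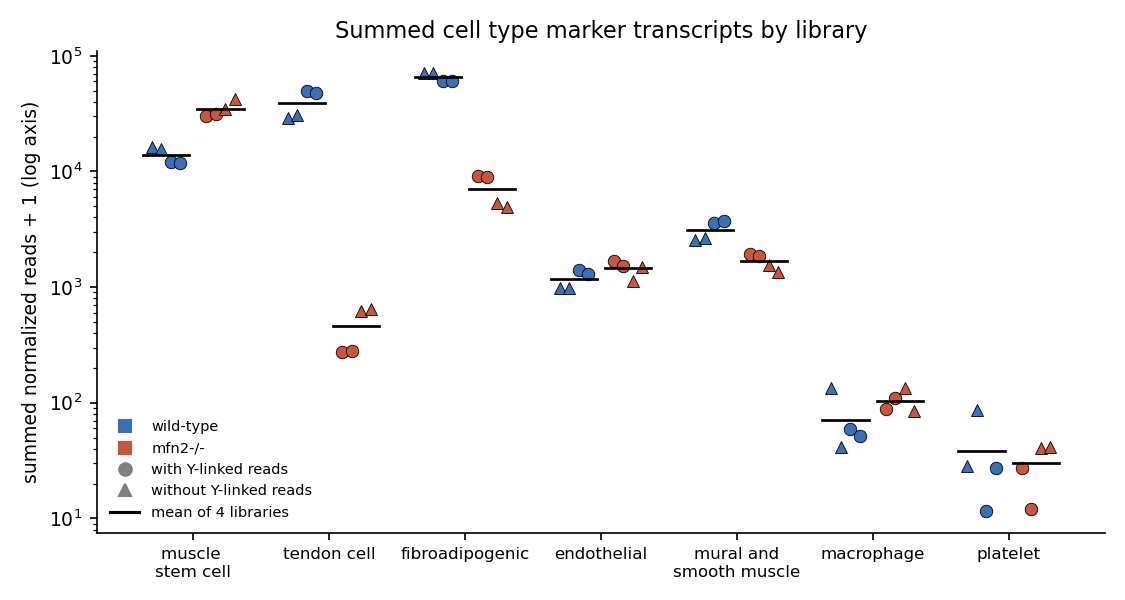
Summed normalized reads + 1 (log axis) of the markers of each cell type in each library, with wild-type in blue, mfn2-/- in red, circles for libraries with Y-linked reads, triangles for those without, and bars for means of 4 libraries. Tendon cell markers fall from 28958 to 49506 in wild-type to 275 to 645 in mfn2-/- libraries, while macrophage and platelet markers stay at or below 132 in every library.

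The genes whose profiles over the 8 libraries were nearest to each member were found among the 5584 genes that averaged 100 or more, by the root mean square difference of the centred log2 values. Nearest to Thbs1 were Akap12 (0.18), Abcd3 (0.18) and Fgl2 (0.21), all of them higher in wild-type replicates 1 and 2 than in 3 and 4. Thbs2 was matched by the basement membrane genes Lamb1 (0.17) and Nid1 (0.18) and the fibrillar collagen Col5a2 (0.19). Thbs4 lay nearest to Serpinf1 (0.24), Col11a2 (0.43) and the proteoglycan Dcn (0.43), and Serpinf1 changed by -6.64 (limma adjusted p 8.01e-08), from 3024 ± 691 to 31.8 ± 14.9 normalized reads. Nearest to Comp were Chad (1.06), Acan (1.10) and Pappa2 (1.11), all of them at 0 or 1 reads over the mfn2-/- libraries. Profiles were matched over both groups, so changes and patterns like those of a member, as for Serpinf1, follow from the choice and are no separate result. The measure is not scaled to the spread of a profile, and the distances from Comp rest on few mfn2-/- reads. Thbs3 was followed by Matn4 (0.42), D18Ertd653e (0.42) and Itga9 (0.46).

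Genes beside the members on the chromosome were examined with coordinates of GENCODE M21. Thbs1 lies at chr2:118111876-118127133 (plus strand), Thbs2 at chr17:14665500-14694235 (minus), Thbs3 at chr3:89215180-89226837 (plus), Thbs4 at chr13:92751590-92794818 (minus) and Comp at chr8:70373558-70382066 (plus). Mtx1, on the strand opposite to Thbs3, shares 318 exon bases with it (6.59% of the Thbs3 exons) and measured 48.3 ± 26.3 and 40.4 ± 30.8 normalized reads (log2 change -0.46, limma adjusted p 0.777). Whether the counting used strand is not given in the sources used here. Muc1, which lies beyond the end of Thbs3, measured 0.60 (limma adjusted p 0.847).

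Crtc1, on the minus strand, ends 288 bases beyond the end of Comp, so that the genes converge, and measured 140 ± 43.9 and 82.8 ± 31.1 normalized reads (log2 change -0.81, limma adjusted p 0.301). Upf1, on the other side of Comp, was at 864 ± 104 and 868 ± 221. Serinc5 (-1.08, limma adjusted p 0.162) and Mtx3 (-0.91, limma adjusted p 0.267) flank Thbs4 and did not pass the test, though the groups of Mtx3 did not overlap (96.9 ± 19.0 and 50.6 ± 7.04). Smoc2, which lies 260709 bases from Thbs2 and is itself a matricellular gene of the fibroadipogenic list, changed by -8.45 (limma adjusted p 8.19e-05), or by -7.11 without mfn2-/- replicate 4, where it had 0 reads. Of the 7 neighbours compared here, Smoc2 was called lower and the other 6 did not pass. Gm29233, annotated on the strand opposite to Thbs1, shares 2.52% of the 31-base words of its exons, and no value of it was used here.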

How the data were processed

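Per the labels, the RNA came from sorted cells and a stranded kit for small inputs, and the submitters' processing notes name Trim Galore, HISAT2, featureCounts and DESeq2 with the build mm9. Each deposited value is the signal of 1 gene symbol, a read count that the authors divided by 1 size factor per library. All values (100%) were whole multiples of 1 step within 0.01, so whole reads were recovered for depth, intervals and count models. One read was worth 0.534 to 2.27 normalized reads. Intervals cover counting error only.

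Genes with a mean of at least 10 (11754) entered a limma 3.58.1 fit (R 4.3.3) of log2(value + 1), a scale on which the change of weak genes depends on the pseudocount, with an intensity trend, two-sided, without covariates, and Benjamini-Hochberg adjustment at 0.05. Single genes also got a two-sided exact permutation test. Groups and replicates were taken from titles. A gene was at the floor at 3 reads or fewer.

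The members and lists were chosen with earlier results of these data known. Genes named were the members, Mfn2, up to 4 called genes with the largest change and the 2 highest means from each partner, tendon, fibroadipogenic and muscle stem cell list, the highest mean of each other list, and the 3 nearest profiles per member. Neighbouring genes, Pax7, Emr1, C1qb and genes named as not passing were added after their values were seen. Lengths and positions came from GENCODE M21 (GRCm38) and were found for 86.5% of symbols, and the table holds no coordinates. Of the neighbouring genes, Rasgrp1 was below the filter and Fsip1, Wdr27 and 1 other gene are not reported here.

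Alternatives were pseudocounts of 0.1 and 10, no filter, a mean of at least 50, equal totals, upper-quartile and quantile scaling, a replicate block, a term for Y-linked reads, no trend, array weights, each library left out, an adjusted p under 0.01, edgeR 4.0.16 and DESeq2 1.42.0 on recovered reads, and other lengths for the share. Those for the Thbs1 difference between kinds of library were chosen after seeing the data. The fits were tested on simulated data.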

Additional observations from a re-analysis of the deposited data

Results flagged for a closer look

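The genotype change of Thbs1 differed between libraries with and without Y-linked reads by -0.94 on the log2 scale (limma adjusted p 0.0148). It shared this feature with 5 others of the 64 named genes, where 1.47% of all genes tested passed this test. The named genes were picked partly for large changes, high means or nearness to a member, so that share is no even match for them. The difference, without minus with Y-linked reads, was 1.83 for Acta2 (SE 0.38, adjusted p 0.0452), -1.49 for Adamts1 (SE 0.21, adjusted p 0.00618), -1.43 for Col3a1 (SE 0.26, adjusted p 0.0250), -1.43 for Gsn (SE 0.15, adjusted p 0.00163) and -0.74 for Hspa5 (SE 0.13, adjusted p 0.0253), all by limma. The genotype change had opposite signs in the kinds of library for Adamts1 (0.48 with and -1.01 without Y-linked reads) and Acta2 (-1.52 and 0.31). The other 4 members of the family did not pass this test.

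In 128 groups of 4 libraries, 4 held a library far from the other 3 by Dixon's criterion. Chance flags about 1 in 20 groups, or 6.4, only where values are continuous, so 6.4 is no fair expectation here. All 4 flags lay in the mfn2-/- group. Chad had 0.790 normalized reads (1 read) in mfn2-/- replicate 2, Mfap4 1.58 (2 reads) in the same replicate, and Cilp2 7.33 (11 reads) in mfn2-/- replicate 1, with 0 in each of the other 3 libraries. A group with 0 in 3 libraries and reads in 1 is flagged at any value. Smoc2 was at 0 in mfn2-/- replicate 4 and at 36.1 to 42.7 in the others.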

How the results depend on the processing

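The 5 members kept their direction under 21 alternatives each, and 100 of 105 values stayed on the same side of the threshold. Exceptions were Thbs1 without the intensity trend (-1.15) and Thbs3 at a pseudocount of 0.1 (-5.29), without that trend (-4.43) and without wild-type replicate 3 or 4. With 1 library left out the log2 change ran from -1.29 to -1.02 for Thbs1, -2.92 to -2.67 for Thbs2, -5.01 to -3.23 for Thbs3, -6.75 to -6.36 for Thbs4 and -9.53 to -8.51 for Comp. Thbs3 and Comp rest on few mfn2-/- reads.

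The number of genes called over the whole table (1217) was 633 without the trend, 3037 with array weights, 498 at an adjusted p under 0.01, and 671 (without wild-type replicate 3) to 1331 with 1 library left out; it was 749 without wild-type replicate 4. Partner genes called (33) were 19 without the trend and 21 under 0.01. The Thbs4 share without length was 58.2% and 4.93% in the wild-type and mfn2-/- groups. The share per kilobase (70.0% and 8.86%) ran, with 1 library left out, from 68.4% to 72.0% and from 7.92% to 9.71%. The Thbs1 difference between kinds of library was -0.81 with equal totals, -0.72 with quantile normalization, -0.94 without the trend, and -0.99 to -0.90 with 1 library left out, where a lone library was assumed to vary like the others. The causes were not tested.

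Same-numbered libraries did not deviate together (correlations of -0.03, -0.05, 0.04 and -0.11 for numbers 1 to 4). Libraries of the same number were of unlike kind in Y-linked reads, so these correlations cannot tell whether they shared a step of handling. With the replicate block 1043 genes were called, 31 of the partner genes, and the 5 members kept their calls. Of 1235 values for the other 59 named genes, 1132 kept direction and side of the threshold, 75 lost the call and 6 gained it. The 22 that changed direction belonged to 6 genes called in no direction. These were Adamts1 with array weights (0.223), Tek with array weights (-0.085), Itga2b with edgeR (-0.34) and DESeq2 (-0.38), Upf1 with equal totals (0.028), upper-quartile scaling (0.026), edgeR (0.060) and DESeq2 (0.0046), and Cd68 at a pseudocount of 10 (0.089), quantile normalization (1.47), array weights (1.79), edgeR (0.26) and DESeq2 (0.11). With 1 library left out the values ran from -0.85 to 1.06 for Cd68, -0.64 to 1.47 for Itga2b, -0.47 to 1.88 for Muc1, -0.12 to 0.20 for Tek and -0.17 to 0.10 for Upf1.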
